A study of Rattus norvegicus with 2 samples.

Results

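Back-splice hub sites are genome positions that serve as the start or the end of several circular RNAs (circRNAs) at once. A site was taken as a chromosome with a start, or a chromosome with an end, and a hub was a site carried by at least 4 circRNAs of the deposited table. Of 17958 sites, 330 (1.84%) met this rule, 167 as starts and 163 as ends. They took in 1449 of 11599 circRNAs (12.5%), of which 681 had a hub at the start, 695 at the end and 73 at both. The rule used which circRNAs were listed and no read count. A circRNA is listed where either library held it.

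The study set circRNAs of rat spinal cord in a model of bone cancer pain (BCP) against those of a sham group. Walker 256 cells, a rat mammary carcinoma line grown as ascites in SD rats, went into the tibial marrow cavity. The BCP group received live cells and the sham group received cells boiled for 20 minutes, both by the same surgery. Tissue was taken 21 days after surgery from 3 animals per group. No genotype, sex or age of the animals was used here. Total RNA was freed of ribosomal RNA and digested with 16 units of RNase R for 15 minutes, which removes linear RNA, before strand-marked libraries were made. Each group had a single library (n = 1). No difference below therefore has a replicate check, no test of the conditions was possible, and each comparison is between the reads of these 2 libraries. The sources used here do not say whether RNA was pooled over animals.

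In back-splicing, the spliceosome joins the end of a downstream exon to the beginning of an upstream exon, which closes the RNA into a ring. A splice acceptor that is used by several donors, or a donor used by several acceptors, gives several rings that share an edge, and this is often called alternative back-splicing. Neurons are known for an abundance of circRNAs, many of them from genes of the synapse.

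The sham library held 113033 back-splice reads and the BCP library 78836, so the sham library was 1.43 times as deep. Counts were 0 or at least 2, so a circRNA listed at 0 may have had a single read. All intervals are 95% exact binomial (Clopper-Pearson) intervals, or conditional exact ones for ratios. The reads carry no molecular identifiers and are not independent molecules, so the intervals cover counting error only. Ratios are of BCP over sham after scaling to these totals, and log2 ratios have 0.5 reads added to each count. Of the marker hosts for the tissue, all 8 neuronal genes gave circRNAs, with 1296 sham and 793 BCP reads, and Map2 and Rims2 among them had hub sites. Oligodendrocyte hosts (3 of 6) gave 11 and 45 reads, astrocyte hosts (1 of 5) 5 and 3, and microglia and macrophage hosts (2 of 6) 13 and 43, with Aif1, Csf1r, Cx3cr1 and Itgam at 0. None of the 4 skeletal muscle markers gave a circRNA. No oligodendrocyte, astrocyte or microglial marker hosted a hub, and the part of cell makeup in the differences below was not tested.

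Most splice positions had a single circRNA, and the number of sites dropped steeply with the number of circRNAs. There were 14325 sites with 1 circRNA, 2558 with 2 and 745 with 3. Among the hubs, 212 sites had 4 circRNAs, 75 had 5, 24 had 6, 7 had 7, 7 had 8, 3 had 9, 1 had 10 and 1 had 13. Sites just inside the rule, with 4 circRNAs, held a median of 54 reads over both libraries, and sites just outside it, with 3, held 33. The circRNA with the most reads took a median of 59.4% of sham reads at the 163 sites of 4 that had at least 10 reads in each library, and 70.4% at the 428 such sites of 3. A site of 4 sums over more circRNAs than a site of 3, so both contrasts go with the count of circRNAs itself.

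**Figure D1:**
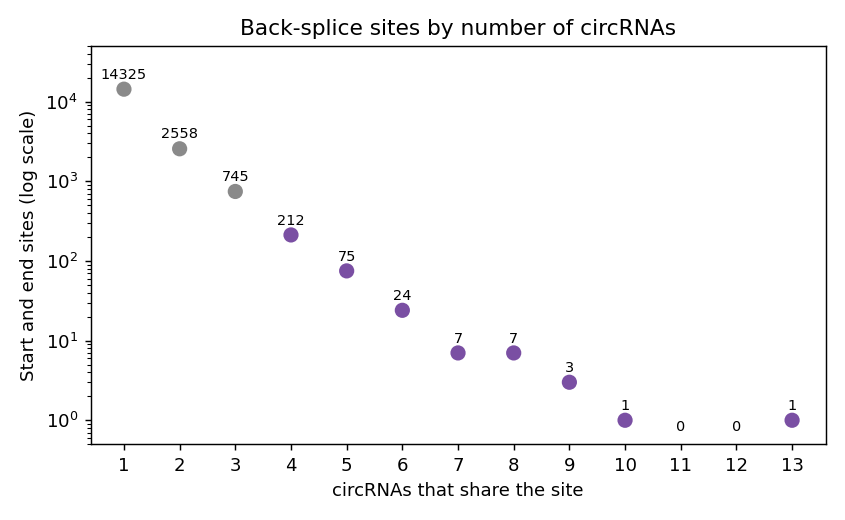
Number of start and end sites (log axis) by the number of circRNAs that share the site, with hubs (4 or more) in purple. Counts drop from 14325 sites with 1 circRNA to 212 with 4 and a single site with 13.

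The circRNAs with a hub site spanned more of the genome, held more reads and were listed more often in both libraries than the others. Their median genomic span was 27748 bases, against 8292 for the 10150 circRNAs without a hub. Their median was 9 reads over both libraries against 5. Of the hub circRNAs, 829 (57.2%) had reads in both libraries, 414 (28.6%) only in sham and 206 (14.2%) only in BCP. Of the others, 38.9% had reads in both, 37.5% only in sham and 23.5% only in BCP. Hub circRNAs made up 31.2% (30.9 to 31.5) of the sham total and 29.8% (29.5 to 30.1) of the BCP total. Apart from the most abundant circRNA of the table, from Gigyf2, the other hub circRNAs made up 25.2% and 23.7% of these same totals. A hub needs at least 4 listed circRNAs with different far ends, and a circRNA is listed through its reads. Span, reads and listing are therefore not independent of the rule, and these contrasts only describe the circRNAs it took in.

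Each circRNA at a hub is called a partner of the site here. The site with the most partners was an end in Rims2, which encodes a scaffold protein of the presynaptic active zone. It lay on chromosome 7 at position 78520474 (build rn6, as are all positions) and had 13 partners, 12 listed in sham and 9 in BCP. Their spans ran from 38102 to 173351 bases. The partner of 58187 bases led with 251 of 538 reads in sham (46.7%, 42.4 to 51.0) and 180 of 325 in BCP (55.4%, 49.8 to 60.9). The partner of 87648 bases followed with 83 and 39 reads, and the partner of 66741 bases with 64 and 37. The order of these 3 was the same in both libraries, and no partner of the site met the rule for a changed share given below.

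The end in Sergef, which encodes a protein with homology to guanine nucleotide exchange factors and a role in secretion, was a hub of another shape, with its reads spread over several partners. It lay on chromosome 1 at position 102660697 and had 10 partners with spans from 1803 to 157433 bases. The partner of 46730 bases had 107 of 260 sham reads (41.2%) and 92 of 202 BCP reads (45.5%). The partner of 132723 bases had 73 and 55 reads (28.1% and 27.2%), and that of 21813 bases had 50 and 34 (19.2% and 16.8%). Partner shares at this site moved by less than 5 percentage points in each of these cases, within their intervals.

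Other hubs were held almost whole by a single partner. The start in Gigyf2, which encodes a repressor of translation, lay on chromosome 9 at position 94463647 with 8 partners. Its partner of 17521 bases had 6836 of 7139 reads in sham (95.8%, 95.3 to 96.2). In BCP it had 4806 of 4977 (96.6%, 96.0 to 97.1). The same circRNA closed at a second hub, an end at position 94481167 with 5 partners, where it had 99.6% and 99.7% of the reads. The start in Ssbp2, which encodes a protein that binds single-stranded DNA, lay on chromosome 2 at position 20507150 with 9 partners. Its partner of 24295 bases had 2842 of 2991 sham reads (95%) and 1708 of 1824 BCP reads (93.6%). A rare partner of 119655 bases there was listed at 0 in sham and had 29 BCP reads, which met the size rule for single circRNAs but was 1.59% of the site.

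Stk39, which encodes a kinase that regulates chloride cotransporters, had 5 hub sites. Its end on chromosome 3 at position 54566332 had 9 partners, all listed in sham and 7 in BCP. The partner of 19087 bases led with 369 of 489 sham reads (75.5%) and 253 of 347 BCP reads (72.9%). The partner of 56392 bases, which closed between this end and a hub start at 54509941, had 60 and 38 reads. At that start 3 partners had similar reads, with 60, 50 and 52 in sham and 38, 36 and 25 in BCP. At the start 54455979 the leading partner of 54193 bases had 69 of 115 sham reads (60.0%, 50.4 to 69.0) and in BCP 26 of 72 (36.1%, 25.1 to 48.3). It led in both libraries, and its share was 23.9 points lower in BCP.

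Other hubs with 8 or more partners whose leading partner was the same in both libraries included those in Strbp, Dennd1b and Dgkb and a site without a host name. The end in Strbp, which encodes an RNA-binding protein, had 170 sham and 73 BCP reads, of which the partner of 25749 bases took 74 and 26. The start in Dennd1b, which encodes an activator of a Rab GTPase, was led by its shortest partner of 2028 bases with 81 of 106 reads (76.4%) and 65 of 74 (87.8%). The end in Dgkb, which encodes a diacylglycerol kinase, was led by the partner of 14150 bases with 20 of 62 and 18 of 46 reads. An end on chromosome 4 at 132114473, without a host name in the table, was led by a partner of 39055 bases with 129 of 188 and 127 of 168 reads. That partner began at a hub start in Eif4e3, described below.

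The end in Snx27, which encodes a sorting protein of the endosome, had no partner that held most of its reads. Of 81 sham reads the partner of 26827 bases had 31 (38.3%, 27.7 to 49.7), and of 66 BCP reads it had 13 (19.7%, 10.9 to 31.3). The partner of 19842 bases had 7 (8.64%) and 15 (22.7%), so that it led in BCP. Its scaled reads were 3.07-fold higher in BCP (1.18 to 8.91), while neither share moved by 20 points. The start in Evi5, which encodes a protein with a Rab GTPase-activating domain, had 25 and 21 reads over 8 partners. Its partner of 230 bases was listed at 0 in sham and had 6 BCP reads (28.6%).

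**Figure D2:**
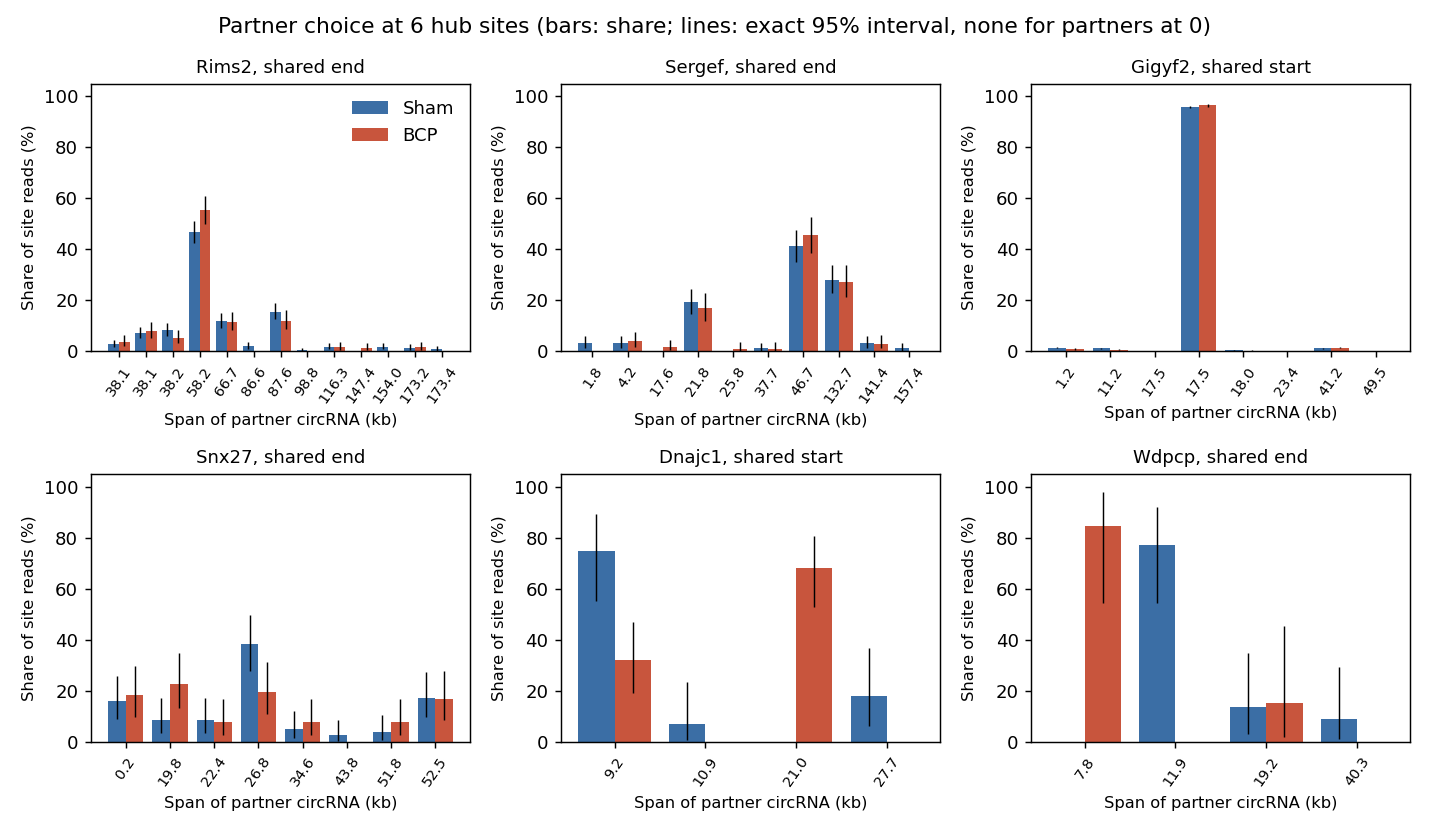
Share of the reads of a site (percent) taken by each partner, ordered by span, in sham and BCP at 6 hubs, with exact 95% intervals for partners with reads. The Rims2, Sergef and Gigyf2 sites kept their leading partner, whereas the Snx27, Dnajc1 and Wdpcp sites were led by another partner in BCP.

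The most abundant hubs kept their leading partner with similar shares, apart from a near tie in Mkln1. The start in Crebrf, which encodes a regulator of a stress-response transcription factor, had 993 sham and 514 BCP reads. Its partner of 6079 bases took 80.2% (77.5 to 82.6) and 80.5% (76.9 to 83.9) of them. The end in Uvrag, which encodes a protein of autophagy and endosome maturation, was shared by a partner of 18714 bases with 276 and 227 reads and one of 39298 bases with 225 and 169 reads. These took 52.4% and 42.7% of sham and 54.8% and 40.8% of BCP reads. The start in Elf2, which encodes an ETS-family transcription factor, was led by a partner of 21447 bases with 756 and 472 reads (93.8% and 91.1%). A partner whose end lay 3 bases away had 29 and 25 reads. The start in Mkln1, which encodes a subunit of a ubiquitin ligase complex, had its leading partner of 11001 bases at 250 of 537 reads (46.6%) in sham and 195 of 464 (42.0%) in BCP. The partner of 34282 bases there had 187 (34.8%) and 196 (42.2%), and the intervals of the pair overlapped in BCP.

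Partner choice was compared at the 274 hub sites with at least 10 reads in each library. Shares within a site do not depend on how the libraries are scaled. The partner with the most reads was the same circRNA in both libraries at 217 sites (79.2%) and another at 57, that is 20.8% of hubs. Another partner led at 14.2% of all 1497 sites with 2 or more circRNAs that had these reads, at 10.3% of sites with 2 and at 17.1% of sites with 3. Where the BCP library held at least 50 reads, the leading partner was the same at 101 of 107 hubs (94.4%). Where it held fewer, it was the same at 116 of 167 (69.5%). The leading partner had a median share of 57.7% in sham and 58.1% in BCP. Its share was higher in BCP at 137 hubs and lower at 136, with a median difference of 0.037 percentage points and quartiles of -8.59 and 8.80. At 151 hubs it differed by at most 10 points.

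**Figure D3:**
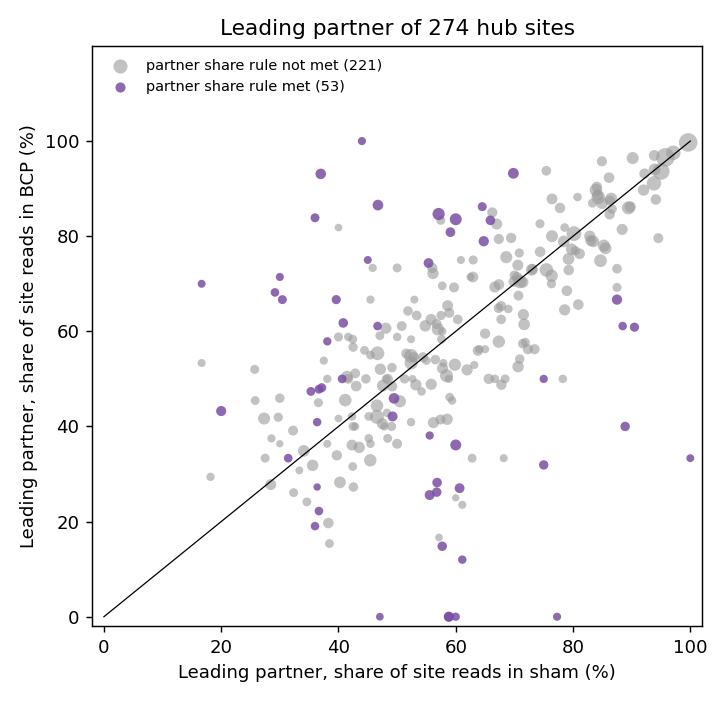
Share of the leading partner in sham (horizontal) and in BCP (vertical), in percent of the reads of the site, at 274 hubs with at least 10 reads in each library. The leading partner is the one with most reads over both libraries, larger dots are sites with more reads, the line marks equal shares, and the 53 sites in purple met the rule for a changed share.

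A changed partner share was a difference of at least 20 percentage points with an exact interval of the odds ratio that excluded 1. It was met at 53 of 274 hubs, 19.3%, against 15.0% of all sites with 2 or more circRNAs, 9.69% of those with 2 and 22.2% of those with 3. The share of hubs thus lay between those of sites with 2 and with 3 circRNAs. In all 77 partners met the rule, 38 with a larger share in BCP and 39 with a smaller one. A larger share of a partner goes with a smaller share of others at its site, and 24 of the 53 sites had 2 changed partners. The 77 are thus not separate changes, and the near-even split comes partly with the measure. Of the 77, 16 were listed at 0 in sham and 22 at 0 in BCP. At 35 of the 53 sites a partner with reads in both libraries met it, but with shares taken only over such partners it was met at 16 of 247 sites (6.48%). At 30 of the 53 another partner led in BCP. The rule was met at 46 of 167 hubs with under 50 BCP reads (27.5%) and at 7 of 107 with more (6.54%). With each 0 counted as 1 read it was met at 41 of 283 sites.

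The largest difference in share was at an end in Wdpcp, which encodes a protein of planar cell polarity and cilia, on chromosome 14 at position 106500203. The partner of 11871 bases had 17 of 22 sham reads (77.3%, 54.6 to 92.2) and was listed at 0 among 13 BCP reads. The partner of 7834 bases was listed at 0 in sham and had 11 BCP reads (84.6%, 54.6 to 98.1). Both libraries listed a partner of 19182 bases, with 3 and 2 reads.

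At a start in Dnajc1, which encodes a co-chaperone of the endoplasmic reticulum, on chromosome 17 at position 85036937, a partner of 9183 bases had 21 of 28 sham reads (75%) and 15 of 47 BCP reads (31.9%). A partner of 20976 bases was listed at 0 in sham and had 32 BCP reads (68.1%, 52.9 to 80.9). The reads of the whole site were 2.41-fold higher in BCP (1.48 to 3.99), a log2 ratio of 1.26 that was 0.048, below the rule, over partners with reads in both libraries. At a start in Faf1, which encodes a ubiquitin-binding protein, the partner of 9000 bases had 9 of 25 sham reads (36.0%, 18.0 to 57.5) and in BCP 26 of 31 (83.9%, 66.3 to 94.5). It was the leading partner in both libraries and had reads in each.

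Several hubs had a partner with 40 or more sham reads that was listed at 0 in BCP. At a start in Mboat2, which encodes a lysophospholipid acyltransferase, the partner of 4677 bases had 61 of 119 sham reads and the partner of 52227 bases had 44. In BCP the former was listed at 0 and the latter had 27 of 29 reads (93.1%). At equal levels the former would have had 42.5 BCP reads. At a start in Stag1, which encodes a cohesin subunit, the partner of 7959 bases had 40 of 68 sham reads and 0 in BCP, where the partner of 40574 bases had all 17 reads. At a start in Eri3, which encodes a member of an exoribonuclease family, the partner of 27087 bases had 45 sham reads and 0 in BCP, while the partner of 50650 bases had 50 and 45. Each of these sites kept a second partner with reads in both libraries.

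Eif4e3, which encodes a cap-binding protein, had the same circRNA, listed at 0 in BCP, at both of its hubs. The circRNA of 19332 bases joined the hub start at 132075419 to the hub end at 132094750 on chromosome 4 and had 50 sham reads and 0 BCP reads. At the start, the partner of 39055 bases had 129 and 127 reads, so its share went from 57.1% to 84.7%. At the end, the partner of 12255 bases had 22 and 20 reads, and its share went from 25.9% to 62.5%. These are not independent sites, since a single circRNA sets both.

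Rims2 had 9 hub sites with 41 circRNAs, more than any other host, and its hubs differed in how far partner shares moved. Together these circRNAs had 827 sham and 534 BCP reads (ratio 0.926, 0.829 to 1.03). At the start 78188914 the partner of 58284 bases had 32 of 36 sham reads (88.9%, 73.9 to 96.9) and in BCP 16 of 40 (40.0%, 24.9 to 56.7). A partner of only 211 bases there had 4 (11.1%) and 17 (42.5%), 6.09-fold higher in BCP (1.99 to 24.9). At the end 78462388 the partner of 29562 bases had 63 of 72 reads (87.5%) and 36 of 54 (66.7%). The same circRNA, counted at its start 78432827, had 40.4% and 45% of the reads of that site. The rule for a changed share was met at 2 of the 8 Rims2 sites with enough reads.

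At other hubs with a changed share the reads were few or the ends close together. An end in Ehmt1, which encodes a histone methyltransferase, had a single partner in sham with 15 reads, and 4 partners in BCP, where that partner had 5 of 15. An end in Mipol1 had 4 partners in sham and only that of 45330 bases in BCP, with 11 reads in each library. A start in Pde3b, which encodes a cyclic nucleotide phosphodiesterase, had partners whose ends lay 3 bases apart. The one of 19411 bases had 2 and 14 reads and the one of 19414 bases 4 and 0. Of all hubs, 13 had partner ends under 10 bases apart, and 2 of these were among the 53 sites. The median smallest distance between partner ends was 4272 bases.

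Summed over its partners, a hub was held to the size rule, which asks for 2-fold or more in either direction and an interval free of 1, over sites with at least 10 reads. Of 330 hubs, 10 were higher in BCP (3.03%) and 29 lower (8.79%), against 8.27% higher and 8.23% lower of all 6490 sites with these reads. Sites of 1 circRNA stood at 9.07% and 7.69%, and sites of 2 or 3 at 7.82% and 8.93%. The split moved with scaling, to 9 and 36 with median-of-ratios factors and 8 and 38 with TMM factors, which shift all log2 ratios by -0.10 and -0.12. Counts over all sites were not computed with these factors, so the shares above are no background for them. The median log2 ratio of hub sums was -0.06 against 0.01 over all sites. The rule that a site needs listed circRNAs draws more on the deeper sham library, whose part in this split was not tested. Over partners with reads in both libraries, 10 of 299 hubs were higher and 6 lower, a setting at which all sites were not counted.

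Among the hubs with lower sums in BCP, the one with the most reads was an end on chromosome 7 at position 32982696, without a host name. It had 250 sham and 73 BCP reads, 2.39-fold lower (1.83 to 3.14). Its partner of 60693 bases had 150 and 61 reads and its partner of 33045 bases 73 and 7. The start in Cdh7, which encodes a cadherin of cell adhesion, had 175 and 50 reads, 2.44-fold lower (1.77 to 3.41). Its partner of 22682 bases took 145 and 40 of these, 82.9% and 80.0%, so its share was similar while the site was lower. The same held at the start in Sptan1, which encodes a spectrin of the membrane skeleton. That site had 78 and 26 reads (2.09-fold lower, 1.33 to 3.40) and its leading partner 57 and 19, 73.1% in each library. A start in Atrnl1, an attractin-like membrane protein, had 88 and 28 reads (2.19-fold lower, 1.42 to 3.49) with 62 and 20 in its leading partner. Over partners with reads in both libraries the log2 ratios of the Sptan1 and Atrnl1 sums were -0.89 and -0.90, below the rule. Without the leading partner the Cdh7 and Atrnl1 sums, at -1.02 and -1.12, missed the rule, as did the Sptan1 sum. The sites in Mboat2 (2.86-fold lower, 1.89 to 4.46) and Stag1 (2.79-fold lower, 1.62 to 5.07) were those where 61 of 119 and 40 of 68 sham reads lay in a partner listed at 0 in BCP. Over partners with reads in both libraries their log2 ratios were -0.20 and 0.095, and neither met the rule.

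Among the hubs that were higher, the start in Arhgap10, which encodes a GTPase-activating protein, had 31 sham and 56 BCP reads, 2.59-fold higher (1.64 to 4.16). Its leading partner of 23059 bases had 21 and 35 reads and its partner of 4095 bases 4 and 10. The start in Mvb12b, which encodes a subunit of the endosomal sorting complex ESCRT-I, had 21 and 46 reads, 3.14-fold higher (1.84 to 5.54). There the partner of 71222 bases had 19 and 28 reads and the partner of 32424 bases 0 and 13. An end without a host name on chromosome 15 at position 48284550 had 28 and 54 reads, 2.77-fold higher (1.72 to 4.53). The end in Mllt10, which encodes a cofactor of a histone methyltransferase, rested on 7 and 14 reads. It missed the rule with TMM factors, over partners with reads in both libraries or without its leading partner. Hubs listed in a single library were few, an end on chromosome 3 with 50 sham reads, a start in the tyrosine kinase gene Fer with 17 BCP reads and a start in the glutamate receptor gene Grik2 with 12 sham reads. These 3 met the hub rule through that library alone, so their ratios are not independent of the rule. At 18 hubs no partner was listed in both libraries. In 8 hubs both the sum and a partner share met their rules.

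**Figure D4:**
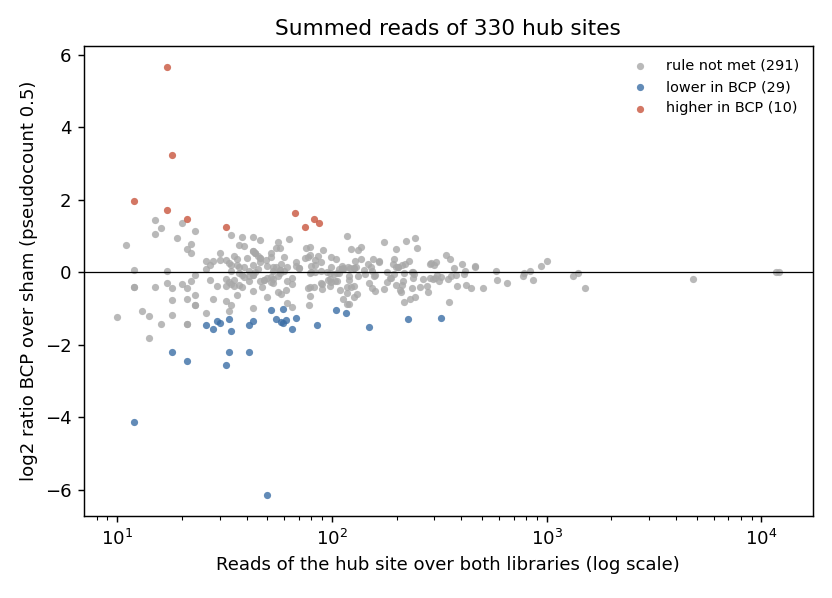
Log2 ratio of BCP over sham of the summed reads of each of 330 hubs, scaled to library totals with 0.5 reads added, against its reads over both libraries (log axis). The 10 higher and 29 lower hubs are marked, and the 3 hubs with 0 reads in a library are drawn through the added 0.5 reads.

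Taken singly, 668 of the 1449 hub circRNAs had at least 10 reads and 781 had fewer. Of the 668, 35 were higher in BCP (5.24%) and 52 lower (7.78%), against 7.82% higher and 7.42% lower of all 3502 circRNAs with these reads and 8.43% and 7.34% of those without a hub. With median-of-ratios factors the hub counts were 27 and 60, and with TMM factors 27 and 62. Counts over all circRNAs were not computed with these factors, so the shares above are no background for them. The median log2 ratio of the 668 was -0.02 against 0.02 over all 3502. Of the 52 lower circRNAs 31 were listed at 0 in BCP, and of the 35 higher ones 6 were at 0 in sham. Over the whole table, 174 of 260 lower circRNAs were at 0 in BCP and 84 of 274 higher ones at 0 in sham. Of 96 hub circRNAs with at least 100 reads and reads in both libraries, 1 was higher and 1 lower, against 6 and 2 of all 272 such circRNAs. The higher was a circRNA of 364 bases from Hnrnph1, which encodes a splicing regulator, with 57 and 85 reads (2.14-fold, 1.51 to 3.05). The lower was the Cdh7 circRNA of 22682 bases (2.53-fold, 1.77 to 3.68).

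Partners other than the leader were less often listed in both libraries. Leading partners were listed in both libraries at 91.5% of the 330 sites, against 49.3% of the other 1192 partners. The median reads were 39.5 and 6, and 766 of the other partners had under 10 reads. The leader is by definition the partner with most reads over both libraries, so these contrasts come with the definition. Sham listed 1316 partners over all hubs, a mean of 3.99 per site, and BCP listed 1096, a mean of 3.32. Thinned to the BCP depth, sham would list 1172, a mean of 3.55. Over the whole table sham listed 9003 circRNAs and BCP 7375, and thinned sham would list 7606. At least 4 partners were listed at 222 hubs in sham, at 135 in BCP and at 80 in both libraries.

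Leading partners tended to be the shorter ones. Their median span was 19566 bases against 31957 for the others. At the 212 sites with 4 partners, the leader was the shortest at 83, the next at 57, the next at 35 and the longest at 37. Over all 330 hubs the leader was the shortest partner at 108 and the longest at 49. At the median hub the longest partner spanned 9.39 times the shortest.

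Which side of the exon a hub used was read for the 218 sites whose host had a strand in the RefSeq annotation (GRCr8 assembly) and neighbours in the same order in the table. Of these, 119 were splice acceptors and 99 were donors. A changed share was met at 19 of 99 acceptors with enough reads (19.2%) and at 12 of 80 donors (15.0%). The leading share had a median of 58.8% in sham and 58.8% in BCP at acceptors, and 55.2% and 54.5% at donors. The leader was the shortest partner at 40 acceptors and 35 donors, and the longest at 10 and 20.

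The 73 circRNAs with a hub at both ends were mostly listed in both libraries, 61 of them (83.6%), with a median of 20 reads. Of all hub circRNAs 57.2% were so listed, and of all circRNAs 41.2%. The 73 held 8849 sham and 6029 BCP reads, of which the Gigyf2 circRNA alone had 6836 and 4806. Of the 52 with at least 10 reads, 1 was higher and 2 were lower in BCP, beside 7.82% and 7.42% of all circRNAs with these reads. Beside the Gigyf2 circRNA, they included one from Ano4, which encodes a membrane protein of the anoctamin family, with 185 and 110 reads. A circRNA of 51518 bases from Atrnl1 had 149 and 71 reads, and one of 72250 bases from Rere, a transcriptional corepressor, had 59 and 55.

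Hub sites lay in 203 named hosts, and 43 sites had no host name. There were 147 hosts with 1 hub, 40 with 2 and 16 with 3 or more. Among the latter, Rims2 had 9 hubs, Stk39 had 5, and Atrnl1 and Atp9b, a phospholipid flippase gene, had 4. Summed over its hub circRNAs, Stk39 had 735 and 503 reads (ratio 0.981, 0.874 to 1.10). Atrnl1 had 583 and 293 reads (0.721, 0.624 to 0.831). Its partner of 39977 bases had 124 and 49 reads, whereas its longest circRNA of 168984 bases, with a hub at both ends, had 6 and 17, 4.06-fold higher (1.53 to 12.6). Mipol1 had 85 and 27 reads (0.455, 0.284 to 0.709). Rps6ka5, which encodes a kinase that phosphorylates histones and CREB, had 150 and 151 (1.44, 1.14 to 1.82). Zranb1, a deubiquitinase gene, had 542 and 361 (0.955, 0.834 to 1.09). Dennd1b, Ccdc148, Adamts6, Faf1 and Hecw1 had ratios from 0.949 to 1.17, each with an interval that included 1. Rere was at 0.850 (0.729 to 0.989) and Tasp1 at 0.689 (0.482 to 0.975).

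By function of the host, hub circRNAs with at least 10 reads had median log2 ratios between -0.25 and 0.21 in the 9 lists, against 0.02 over all circRNAs. The background for the counts of each list is the 7.82% higher and 7.42% lower of all 3502 circRNAs with these reads, and no list is set apart from it here. The active zone list had 3 hub hosts (Rims2, Erc1 and Unc13c) with 12 sites, and 2 of 24 circRNAs were higher and 1 lower. Postsynaptic receptors and scaffolds had 3 hosts, with 0 of 7 higher and 1 lower. Ion channels and transporters had 6 hosts, among them Atp9b, Ano4 and the calcium channel subunit gene Cacna2d3, and 0 of 11 were higher or lower. Adhesion and axon guidance genes had 6 hosts, with 1 of 21 higher and 3 lower, Cdh7 and Atrnl1 among the lower, and the lowest median at -0.25.

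The list of kinases, phosphatases and regulators of small GTPases had 16 hosts and 24 sites. In it 4 of 54 circRNAs were higher and 0 lower (7.82% and 7.42% over all circRNAs), with a median of 0.02. As sums, 2 of its sites were higher and 3 lower (8.27% and 8.23% of all sites with at least 10 reads). Among the higher circRNAs were one of 23059 bases from Arhgap10 and one of 14828 bases from the Hippo pathway kinase gene Stk3. The latter had 17 and 27 reads (2.28-fold, 1.20 to 4.45). Chromatin and transcription genes had 18 hosts and 24 sites, with 2 of 45 higher and 4 lower, and a median of -0.13. RNA processing and translation genes had 8 hosts, with 2 of 38 higher and 3 lower, and the highest median at 0.21. A circRNA of 3783 bases from Pan3, which encodes a subunit of a deadenylase, was among the higher with 18 and 38 reads (3.03-fold, 1.69 to 5.63). Genes of the cytoskeleton, cilium and transport had 8 hosts, with 1 of 18 higher and 1 lower. The list of membrane trafficking and ubiquitin genes had 7 hosts, with 0 of 30 higher and 2 lower. The other 128 hosts and the sites without a host name, 212 sites in all, were in no list. The lists thus do not hold every gene of a function. Outside them were Snx27, Mvb12b, Ankib1 and Faf1, each with a higher circRNA, and Rabep1 and Usp13, each with a lower one. The same was true of the kinase genes Rps6ka5, with 1 higher circRNA, and Dgki and Rps6kc1, each with 1 lower.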

How the data were processed

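The deposited table gives, for each circRNA, its chromosome, start and end and the back-splice junction read counts of the authors in 1 library per group. A second pair of deposited columns, headed TPM, holds CPM of the back-splice total (largest difference from the scaled count 0.000500 CPM, with 0 written as 0.001) and was not used. CASAVA 1.8, BWA and build rn6 are listed, per the submitters' notes on processing. The circRNA caller, read minimum and annotation are not given in these sources. Both samples' source label names the injected cell line, and their tissue label, spinal cord, was followed.

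Hub sites, shares and ratios were computed from the counts with Python 3.11.15 and scipy 1.17.1, after tests on simulated data. Names of small RNA families, and 11 names that covered over 3 Mb, were dropped as hosts. A site was given the most frequent name among its circRNAs that kept a single name. Sums of a host or list take in all circRNAs of its hubs, also those without that name. Zranb1, for example, had 10 hub circRNAs but 7 circRNAs that kept its name alone. Exons and untranslated regions were not used, and no sequence is shown. Comparisons used reads of both libraries with no p-value. No fold is given against a library at 0. Scaling factors came from edgeR 4.0.16 and DESeq2 1.42.0, used on the deposited counts for factors alone. Alternatives were other thresholds, read minimums and scalings. The sites named were those with most partners or reads, the largest differences in share, the most-read sites that met the size rule, and hosts with 3 or more hubs. The single circRNAs of Hnrnph1, Stk3, Pan3, Ano4 and Rere, and the hubs listed in a single library, were chosen after their values were seen. The members and lists were chosen with earlier results of these data known. Some items that these rules take in are not reported here.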

Additional observations from a re-analysis of the deposited data

How the results depend on the processing

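No paired analysis was possible because each group had 1 library. Hubs numbered 1075 at 3 or more circRNAs per site, 118 at 5 or more, 117 over circRNAs of at least 5 reads and 80 over circRNAs with reads in both libraries. The leading partner was the same at 85.3% of sites with at least 20 reads in each library. Changed shares were met at 32 of 204 sites with at least 20 reads in each library. Of 274 sites they were met at 89 with a limit of 10 points and 28 with 30 points. They were met at 16 of 247 over partners with reads in both libraries, at 148 of 702 sites of 3 or more circRNAs and at 13 of 111 sites of 5 or more. Higher and lower hub sums numbered 6 and 27 of 305 with at least 20 reads. Of 330 they numbered 24 and 42 at 1.5-fold and 5 and 10 at 3-fold. They were 18 and 27 of 306 without the leading partner, and 10 and 6 of 299 over partners in both libraries. Sites of 3 or more gave 51 and 85 of 1035, and sites of 5 or more 1 and 7 of 118. Over hubs defined by circRNAs with reads in both libraries, chosen after seeing the data, changed shares numbered 5 of 80, higher sums 1 and lower sums 0. Higher and lower hub circRNAs numbered 71 and 86, both of 983 with at least 5 reads and of 1449 with no minimum. They numbered 20 and 27 of 390 with at least 20 reads, and 29 and 21 of 631 with reads in both libraries. Shares over the whole table were not computed at these other settings, so the counts of this section have no background beside them. The log2 ratio of the Stag1 sum turned to 0.095 over partners with reads in both libraries, and that of Pde3b to -0.17 without its leading partner. Of the other values for single sites, 80 kept direction and call and 23 lost the call. Part of the 80 could not lose it. The limits of 10 points and 1.5-fold are looser, and 20 reads per library left a site's shares as they were. The limit of 30 points lay below every difference of the sites named for the largest differences in share, so the 80 are no measure of stability. The causes were not tested. Of the 1192 partners other than leaders, 766 had under 10 reads, and a partner at 0 may be unlisted rather than absent.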
